A study of Mus musculus with 3 samples.

Results

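Lysosomes are acid compartments in which cells break down proteins, lipids, sugars and whole membranes. Soluble hydrolases and their activators work in the lumen, glycosylated membrane proteins line the organelle and carry its products out, and a proton pump, the V-ATPase, keeps the lumen acid. Microglia, the phagocytes of the brain, are known for a large lysosomal system, and residues that lysosomes fail to degrade, known as lipofuscin, are a classic source of cellular autofluorescence. Many lysosomal genes share a promoter element, the CLEAR element, which is bound by the transcription factor TFEB and its relatives.

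The genes described here were taken from a list of 48 lysosomal genes that leaves out the cathepsins. Of these, 47 had a row in the deposited expression table of 16178 genes, and Atp6v0c was not analysed here. By role, 28 encode hydrolases and other proteins of the lumen, 11 encode membrane proteins and 8 encode subunits of the proton pump. Together they held 9211 of the estimated transcripts of the table, or 0.774%. The total per gene ran from 14.0 transcripts for Gla to 1908 for Lamp1, with a median of 102.

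The cells came from the subventricular zone, a stem cell niche beside the lateral ventricles, of male C57BL/6J mice. Their age is not given in the sources. Per the labels, 8 mice were used per experiment: the tissue was digested with trypsin, cells with the glutamate transporter GLAST on their surface were held back by magnetic beads, and these were sorted. A step that takes out myelin was used in 2 of the 3 experiments. Single cells were sequenced by SORT-seq, a plate method that tags each transcript at its poly(A) end with a molecular identifier, so levels are not divided by gene length. Autofluorescence, a light that comes from unstained cells, is given for each cell, and the title of the series links it to the activation of neural stem cells. No group was treated, and cells were compared by autofluorescence and by the clusters of the authors.

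The 149 cells fell on 3 plates with 43, 45 and 61 cells and 297573, 413728 and 478504 estimated transcripts. The labels call the cells neural stem cells, and the markers showed a mixture. Cluster 1, with 36 cells, was microglia-like and was highest for 10 of 10 microglial markers. Cluster 4 held 6 cells and had the highest level of 8 of 8 markers of activated stem cells or progenitors. Cluster 3, with 30 cells, was like quiescent stem cells or astrocytes, highest for 9 of 10. The remaining 42 cells of cluster 0 and 35 of cluster 2 were oligodendrocyte-lineage-like and were described together. Levels are in CPM, the transcripts of a gene scaled to a common total, from sums of at least 3 cells of 1 type on 1 plate. This gave 3 plates for microglia-like and oligodendrocyte-lineage-like cells, plates 1 and 3 for quiescent stem or astrocyte-like cells, and plate 1 alone for activated stem or progenitor-like cells. The microglia-like sums were shallow, with 29692, 73662 and 23847 transcripts, so that 1 transcript equalled 33.7, 13.6 and 41.9 CPM. Shallowest was the quiescent stem or astrocyte-like sum of plate 3, with 22306 transcripts from 4 cells. There 1 transcript equalled 44.8 CPM. On plate 1 the oligodendrocyte-lineage-like sum held 4 cells.

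The clusters were drawn by the authors from these very values, so differences between cell types are described here without a test. A gene was counted as higher or lower in a cell type where it was so on every plate that had both types. The same count over the 9650 genes with at least 10 transcripts serves as background.

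The promoters of the members were read first, because many lysosomal genes share the CLEAR element. Windows from 250 bases before to 50 bases after each annotated start, from RefSeq on GRCm38.p6, were found for 42 of the 47 genes. The core of the CLEAR element, TCACGTG on either strand, lay in the window of 15 of these 42 genes (35.7%), against 1160 of 27025 genes with a window (4.29%). Since lysosomal genes are already known to share this element, the excess is background and not a result of these data. Overlapping matches around the palindrome CACGTG were counted once. It was present in 8 of 27 lumenal, 3 of 9 membrane and 4 of 6 pump genes. The 15 genes held 22 sites, of which 15 lay within the 100 bases before the start, and the median position was -48.5 from the start. Lamp1 held 4 sites.

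Sequences are shown for members that the results below turn on or that differ in where their mean level was highest. For Lamp1 and Mcoln1 this was oligodendrocyte-lineage-like cells, and for Lgmn, Naglu and Glb1 microglia-like cells. For Atp6v0b and Atp6v0d1 it was quiescent stem or astrocyte-like cells. The highest mean was taken however small the margin, and Mcoln1, Atp6v0b and Atp6v0d1 were not highest there on every plate. Each stretch runs 5′ to 3′ on the strand of the gene, and capitals mark the matches to TCACGTG or its reverse complement.
Lamp1, chr8:13159079-13159171, plus strand: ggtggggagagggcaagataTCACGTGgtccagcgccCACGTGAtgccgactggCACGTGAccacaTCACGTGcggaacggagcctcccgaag
Mcoln1, chr8:3500427-3500500, plus strand: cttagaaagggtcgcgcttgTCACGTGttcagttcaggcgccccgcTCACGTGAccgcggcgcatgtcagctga
Lgmn, chr12:102439116-102439162, minus strand: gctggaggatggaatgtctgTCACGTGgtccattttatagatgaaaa
Naglu, chr11:101070000-101070046, plus strand: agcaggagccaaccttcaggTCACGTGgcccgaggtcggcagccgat
Glb1, chr9:114401009-114401055, plus strand: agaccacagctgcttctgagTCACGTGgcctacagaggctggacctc
Atp6v0b, chr4:117887322-117887386, minus strand: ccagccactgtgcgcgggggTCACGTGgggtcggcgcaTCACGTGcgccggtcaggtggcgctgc
Atp6v0d1, chr8:105566041-105566088, minus strand: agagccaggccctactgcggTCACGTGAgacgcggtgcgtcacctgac

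The element was present in members with their highest mean in each of these cell types, again however small the margin. It was found in 6 of 25 genes that were highest in microglia-like cells, 6 of 12 that were highest in quiescent stem or astrocyte-like cells and 3 of 5 that were highest in oligodendrocyte-lineage-like cells. Lgmn has 2 annotated starts and the element lay before 1 of them. The windows of Grn, Man2b1, Psap and Gm2a had no match, which says only that these letters are not in this window. The longer form GTCACGTG was in 11 of 42 members (26.2%), against 2.55% of all genes, an excess that is likewise background.

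The lumenal genes took the widest share of transcripts in microglia-like cells. Their summed share was 1.12, 1.12 and 0.982% of all transcripts in microglia-like cells on plates 1 to 3, against 0.352 and 0.233% in quiescent stem or astrocyte-like cells on plates 1 and 3. In oligodendrocyte-lineage-like cells it was 0.293, 0.236 and 0.217%. The lowest microglia-like plate thus stood above the highest plate of the other types. The means were 1.07 ± 0.0801% in microglia-like (SD, n = 3), 0.293 ± 0.0839% in quiescent stem or astrocyte-like (SD, n = 2) and 0.249 ± 0.0399% in oligodendrocyte-lineage-like cells (SD, n = 3).

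The membrane and pump genes did not follow that pattern. Membrane genes held 0.299 ± 0.0458% of the transcripts of microglia-like cells, against 0.310 ± 0.00507% in quiescent stem or astrocyte-like and 0.353 ± 0.0371% in oligodendrocyte-lineage-like cells. Pump genes held 0.150 ± 0.0351%, against 0.139 ± 0.0378% and 0.161 ± 0.0182% in the same order. The ranges of microglia-like and oligodendrocyte-lineage-like plates overlapped in both groups of genes. Leaving out Lamp1 and Psap, the most abundant members, turned the mean log2 ratio of the membrane share between microglia-like and oligodendrocyte-lineage-like cells from -0.25 to 0.50, so the sign of that ratio rests on Lamp1.

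**Figure D1:**
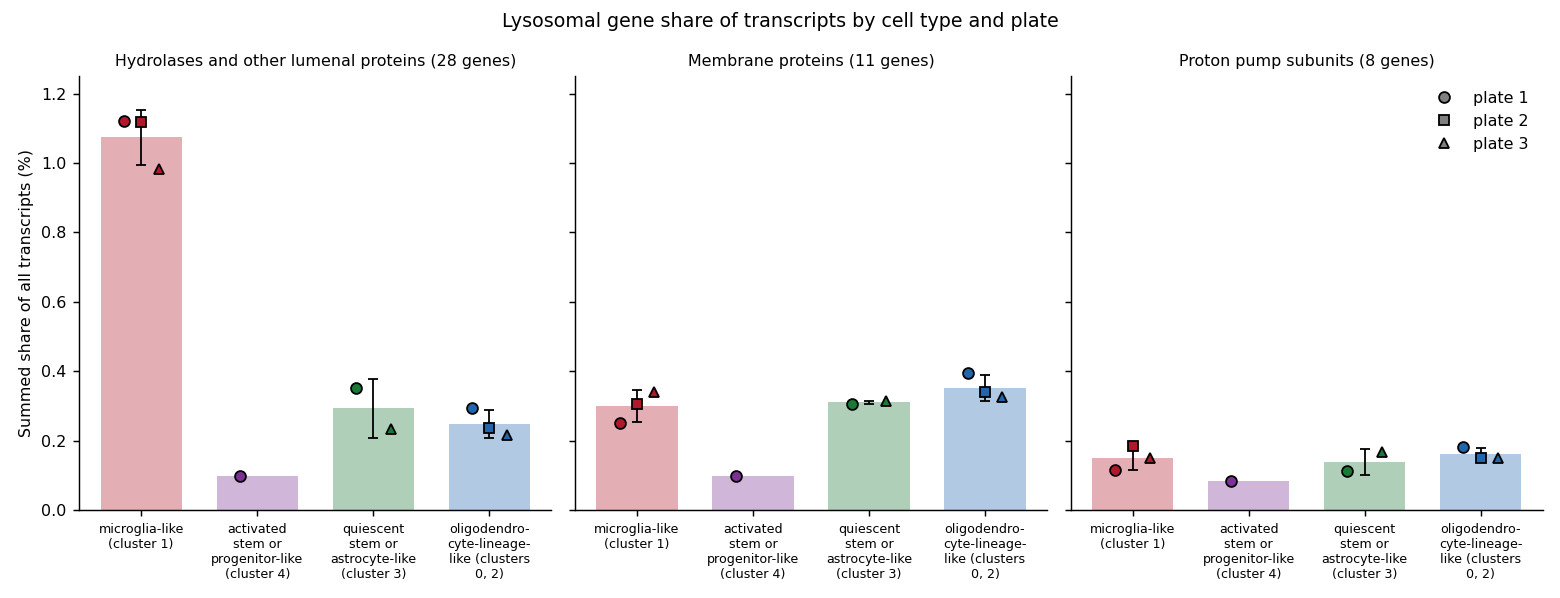
Summed share of all transcripts (%) held by the lumenal, membrane and pump genes in each cell type; points are plates, bars are means and error bars are SD over plates, with 1 plate and no error bar for activated stem or progenitor-like cells. In the left panel microglia-like cells reach 0.982 to 1.12% and no other plate exceeds 0.352%, while microglia-like, quiescent stem or astrocyte-like and oligodendrocyte-lineage-like plates overlap in the pump panel.

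Single cells showed the same separation. The lumenal share of a microglia-like cell ran from 0 to 1.81% with a median of 1.00%, and 33 of the 36 cells lay above the highest of the 30 quiescent stem or astrocyte-like cells and above the highest of the 77 oligodendrocyte-lineage-like cells. None of those other cells reached the microglia-like median, and the same was true of the 6 activated stem or progenitor-like cells. For membrane genes the picture was different: 47 of 77 oligodendrocyte-lineage-like cells had a higher share than the median microglia-like cell. Cells of a plate share their library, so these counts describe cells and do not replace plates.

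A share depends on how much RNA a cell holds. Microglia-like cells had a median of 3455 transcripts, activated stem or progenitor-like cells 17377, quiescent stem or astrocyte-like cells 4192 and oligodendrocyte-lineage-like cells 9012. In transcripts per cell, the median for lumenal genes was 31.0 in microglia-like, 15.5 in activated stem or progenitor-like, 14.0 in quiescent stem or astrocyte-like and 20.0 in oligodendrocyte-lineage-like cells. Plate by plate, the lumenal medians were 44, 39 and 25 transcripts in microglia-like cells, against 34, 28 and 18.5 in oligodendrocyte-lineage-like cells. For membrane genes the medians per cell were 9.0, 12.5, 13 and 31.0 in the same order of cell types. Microglia-like cells were thus first in lumenal and last in membrane transcripts per cell.

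The make-up of the lysosomal transcripts differed accordingly. In microglia-like cells Lgmn made up 15.7% of the transcripts of the 47 genes, Grn 14.1%, Psap 11.03% and Lamp1 5.97%. In quiescent stem or astrocyte-like cells Lamp1 made up 15.4%, Psap 11.7% and Cd63 7.22%. In oligodendrocyte-lineage-like cells Lamp1 alone made up 27.4%, Psap 6.97% and Atp6ap1 5.95%.

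**Figure D2:**
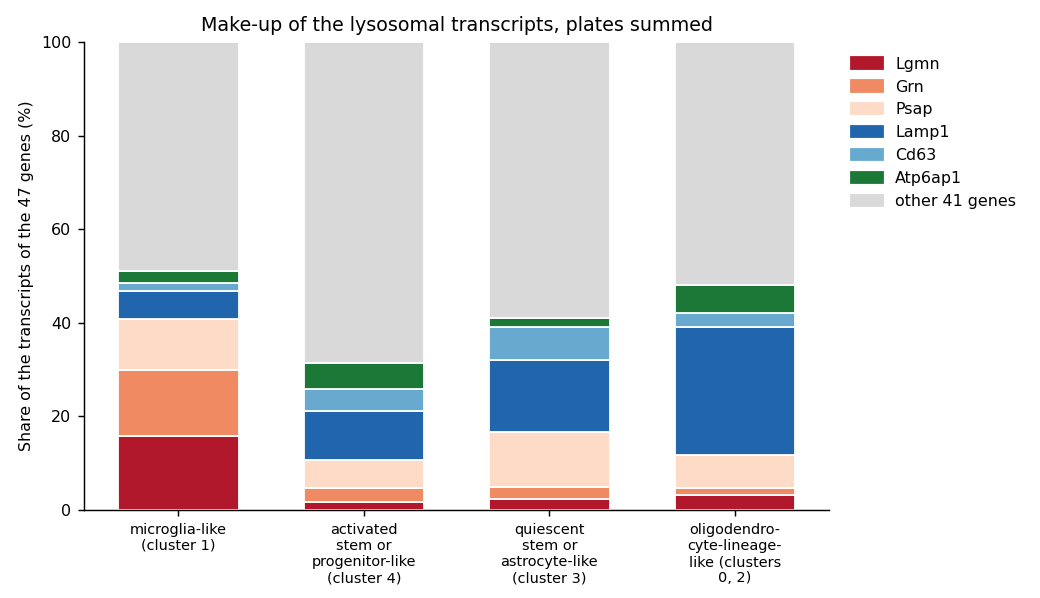
Make-up of the transcripts of the 47 lysosomal genes in each cell type, plates summed, as a share (%) per gene. The lumenal genes Lgmn, Grn and Psap take 15.7, 14.1 and 11.03% in microglia-like cells, and Lamp1 takes 27.4% in oligodendrocyte-lineage-like cells.

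Of the 3 cell types with at least 2 plates, microglia-like cells had the highest mean level for 20 of 28 lumenal genes, 5 of 11 membrane genes and 1 of 8 pump genes. This is 26 of 47 members, against 36.4% of all genes. Quiescent stem or astrocyte-like cells were highest for 13 members (7 lumenal, 2 membrane, 4 pump), and oligodendrocyte-lineage-like cells for 8 (1, 4 and 3). For either type the share over all genes was 31.8%. Against oligodendrocyte-lineage-like cells, 23 members were higher in microglia-like cells on 3 of 3 plates, where 17.7% of all genes were. These were 17 lumenal genes, 5 membrane genes and 1 pump gene. Another 8 members were lower on every plate, against 20.3% of all genes. Some members in both counts differed by less than 1 microglia-like transcript on a plate. The median log2 ratio was 1.14 for lumenal, -0.02 for membrane and -0.41 for pump genes, against -0.17 for all genes. Log2 ratios between cell types were taken per plate on CPM + 10, which understates ratios of low genes.

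**Figure D3:**
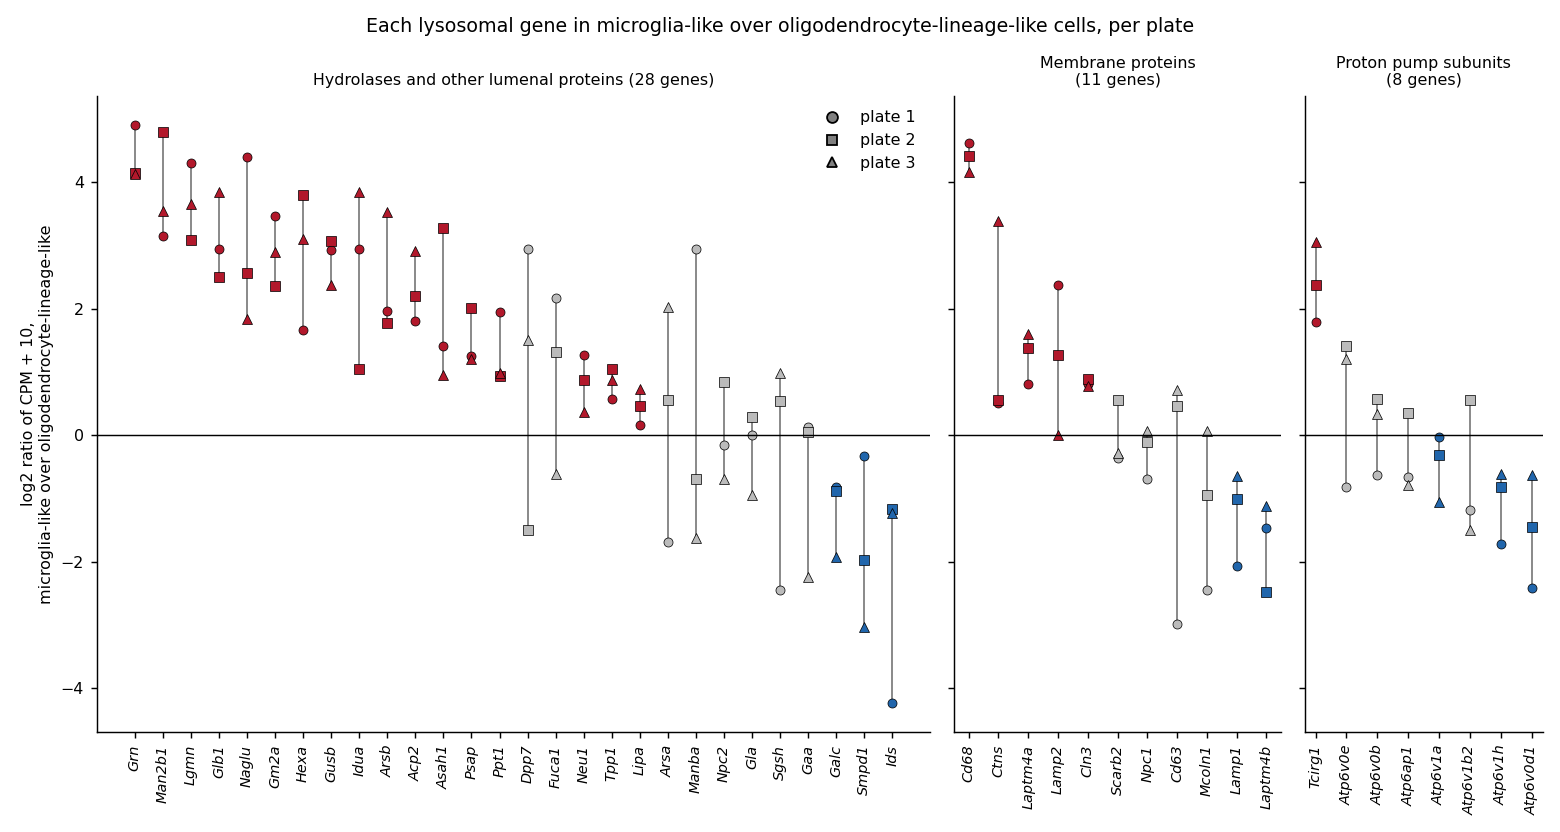
Log2 ratio of CPM + 10 in microglia-like over oligodendrocyte-lineage-like cells for each of the 47 genes; points are plates, red genes were higher on 3 of 3 plates, blue genes lower on 3 of 3, grey genes mixed. Red points fill the left of the lumenal panel, where 17 of 28 genes were higher, and 3 of 8 pump genes are blue.

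Among proteases and their relatives, Lgmn stood out by level. It encodes legumain, an asparagine-specific endopeptidase that also processes cathepsins, and lies at chr12:102394084-102439813 (GRCm38, GENCODE M21). It had 2394, 2434 and 2561 CPM in microglia-like cells, against 176 and 179 CPM in quiescent stem or astrocyte-like cells. Oligodendrocyte-lineage-like cells had 111, 278 and 194 CPM. No plate of the microglia-like cells came near those of the other types, and the mean log2 ratio over oligodendrocyte-lineage-like cells was 3.68 ± 0.61 (SD, n = 3). Tpp1, the peptidase lost in the CLN2 form of neuronal ceroid lipofuscinosis, was more even, with means of 307 ± 57.6 CPM in microglia-like, 296 ± 101 CPM in quiescent stem or astrocyte-like and 168 ± 34.2 CPM in oligodendrocyte-lineage-like cells.

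Grn encodes progranulin, a secreted and lysosomal protein whose granulin peptides support hydrolase activity, and lies at chr11:102430315-102437048. Its levels were 2294, 2177 and 2141 CPM in microglia-like cells, against 237 and 44.8 CPM in quiescent stem or astrocyte-like cells and 66.7, 113 and 113 CPM in oligodendrocyte-lineage-like cells. The microglia-like plates agreed closely, with 2204 ± 80.2 CPM (SD, n = 3), and the mean log2 ratio over oligodendrocyte-lineage-like cells was 4.39 ± 0.45. Grn overlaps Fam171a2 on the opposite strand, and the sources do not say whether the authors counted by strand.

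Psap encodes prosaposin, the precursor of the saposins that help hydrolases reach sphingolipids. It was abundant in each of the 3 cell types with at least 2 plates. It had 1652, 1917 and 1175 CPM in microglia-like cells, against 903 and 808 CPM in quiescent stem or astrocyte-like cells and 690, 468 and 502 CPM in oligodendrocyte-lineage-like cells. The 3 types kept this order on each plate they shared. The log2 ratio of microglia-like over oligodendrocyte-lineage-like cells, 1.49 ± 0.45, was smaller than that of Lgmn or Grn.

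Enzymes of glycoprotein and glycosaminoglycan breakdown included some of the steepest differences. Man2b1, the acid alpha-mannosidase, had 674, 774 and 671 CPM in microglia-like cells. All quiescent stem or astrocyte-like cells together held 2 of its transcripts, and oligodendrocyte-lineage-like cells had 66.7, 18.3 and 48.6 CPM. Arsb, arylsulfatase B of dermatan and chondroitin sulphate breakdown, had 640, 339 and 587 CPM in microglia-like cells, against 155, 91.7 and 41.6 CPM in oligodendrocyte-lineage-like cells. Gusb, the beta-glucuronidase, followed with a mean of 179 ± 55.1 CPM against 16.9 ± 5.03 CPM. Naglu, which removes N-acetylglucosamine from heparan sulphate, had 17 transcripts in microglia-like cells, against 1 in the quiescent stem or astrocyte-like and 11 in the deeper oligodendrocyte-lineage-like cells. Glb1, the lysosomal beta-galactosidase, had 12, against 6 and 3. Ids, the iduronate sulphatase of the same pathway, ran the other way: microglia-like cells had 0, 95.0 and 83.9 CPM, against 178, 226 and 211 CPM in oligodendrocyte-lineage-like cells, and it was the 1 lumenal gene that was highest there. Fuca1, and Arsa and Dpp7 of other pathways, were highest on average in microglia-like cells but not higher than oligodendrocyte-lineage-like cells on every plate. Acp2, an acid phosphatase, had 337, 190 and 294 CPM in microglia-like cells, against 88.9, 33.6 and 30.1 CPM in oligodendrocyte-lineage-like cells. Idua, the iduronidase, was higher in microglia-like cells on each plate on 11 transcripts against 10 in the deeper oligodendrocyte-lineage-like cells, while quiescent stem or astrocyte-like cells had 18, none of them on plate 3. Gaa, the acid alpha-glucosidase that degrades glycogen, was mixed, with 122 ± 137 CPM in microglia-like, 148 ± 18.4 CPM in quiescent stem or astrocyte-like and 124 ± 108 CPM in oligodendrocyte-lineage-like cells. The low-count genes Manba, Sgsh and Gla, with 14.0 to 16.0 transcripts in all, were mixed.

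Genes of sphingolipid and lipid breakdown split between the cell types. Hexa, the alpha subunit of beta-hexosaminidase, had 303, 598 and 335 CPM in microglia-like cells, against 91.8 and 44.8 CPM in quiescent stem or astrocyte-like cells and 88.9, 33.6 and 30.1 CPM in oligodendrocyte-lineage-like cells. Gm2a encodes the activator that presents the ganglioside GM2 to that enzyme, and lies at chr11:55098115-55113029. It was shared by microglia-like cells, with 101, 136 and 168 CPM, and quiescent stem or astrocyte-like cells, with 107 and 179 CPM, against 0, 18.3 and 13.9 CPM in oligodendrocyte-lineage-like cells. Asah1, acid ceramidase, averaged 342 ± 203 CPM in microglia-like, 140 ± 71.8 CPM in quiescent stem or astrocyte-like and 79.8 ± 46.9 CPM in oligodendrocyte-lineage-like cells. Smpd1, acid sphingomyelinase, and Galc, which breaks down the galactosylceramide of myelin, had 2 and 3 transcripts in all microglia-like cells and were lower there than in oligodendrocyte-lineage-like cells on 3 of 3 plates. The differences for Smpd1 on plate 1 and Galc on plates 1 and 3 were smaller than 1 microglia-like transcript. Both had their highest mean in quiescent stem or astrocyte-like cells, with 114 ± 98.1 and 60.7 ± 22.4 CPM, against 66.2 ± 19.6 and 50.8 ± 20.4 CPM in oligodendrocyte-lineage-like cells, differences within the spread of the plates. Npc2, which hands cholesterol to Npc1, averaged 297 ± 158 CPM in microglia-like, 125 ± 50.1 CPM in quiescent stem or astrocyte-like and 292 ± 172 CPM in oligodendrocyte-lineage-like cells. It did not part the first and last of these types beyond the spread of the plates, and quiescent stem or astrocyte-like cells were below both on plates 1 and 3. Ppt1, a thioesterase that removes fatty acids from proteins and is lost in infantile neuronal ceroid lipofuscinosis, averaged 330 ± 38.7 CPM in microglia-like, 140 ± 7.62 CPM in quiescent stem or astrocyte-like and 132 ± 39.3 CPM in oligodendrocyte-lineage-like cells. Lipa, acid lipase, and Neu1, a sialidase, were modestly higher in microglia-like than in oligodendrocyte-lineage-like cells on each plate, with mean log2 ratios of 0.45 ± 0.28 and 0.84 ± 0.45. They had 14 and 9 transcripts in microglia-like cells. The differences for Lipa on plate 1 and Neu1 on plate 3 were smaller than 1 microglia-like transcript. In cluster 2 alone Lipa had 123, 125 and 91.6 CPM, against 101, 109 and 126 CPM in microglia-like cells.

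The membrane genes held the most abundant member and one of the most restricted. Lamp1, a major glycoprotein of the limiting membrane at chr8:13159161-13175338, had 539, 992 and 1217 CPM in microglia-like cells, against 1087 and 1571 CPM in quiescent stem or astrocyte-like cells and 2278, 1990 and 1902 CPM in oligodendrocyte-lineage-like cells. On each plate it was lower in microglia-like than in oligodendrocyte-lineage-like cells, and on plates 1 and 3 quiescent stem or astrocyte-like cells lay between them, with a mean log2 ratio of microglia-like over oligodendrocyte-lineage-like cells of -1.23 ± 0.74. Its partner Lamp2 ran the other way, with 379 ± 152 CPM in microglia-like, 365 ± 198 CPM in quiescent stem or astrocyte-like and 155 ± 60.7 CPM in oligodendrocyte-lineage-like cells, although on plate 3 the microglia-like and oligodendrocyte-lineage-like cells had 210 and 208 CPM. Cd68, a glycoprotein of macrophage lysosomes and a common histological marker of phagocytic microglia, had 236, 204 and 210 CPM in microglia-like cells. These were 27 of its 30 transcripts, against 1 in the quiescent stem or astrocyte-like cells and 1 in the oligodendrocyte-lineage-like cells.

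Cd63, a tetraspanin of late endosomes, and Laptm4a were the membrane genes with their highest mean in quiescent stem or astrocyte-like cells, but Laptm4a did not part them from microglia-like cells. Cd63 ranged from 33.7 to 377 CPM over the microglia-like plates and had 536 and 538 CPM in quiescent stem or astrocyte-like cells, against 333, 205 and 224 CPM in oligodendrocyte-lineage-like cells. Laptm4a had 438, 421 and 545 CPM in microglia-like cells, which overlapped the 528 and 538 CPM of quiescent stem or astrocyte-like cells. Both types stood above the 245, 156 and 173 CPM of oligodendrocyte-lineage-like cells. Its relative Laptm4b was low in microglia-like cells, at 33.7, 40.7 and 83.9 CPM, against 111, 272 and 194 CPM in oligodendrocyte-lineage-like cells.

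The transporters and channels of the membrane had no common direction. Npc1, the cholesterol exporter, had 330 ± 42.9 CPM in microglia-like, 72.1 ± 38.6 CPM in quiescent stem or astrocyte-like and 410 ± 166 CPM in oligodendrocyte-lineage-like cells, so that the second of these was low and the others overlapped. Cln3, lost in juvenile neuronal ceroid lipofuscinosis, was higher in microglia-like than in oligodendrocyte-lineage-like cells by a log2 ratio of 0.82 ± 0.06 (n = 3), the narrowest spread of the membrane genes. Its microglia-like values rest on 6, 16 and 3 transcripts, too few for the narrow spread to mean a precise ratio. Mcoln1, the calcium channel TRPML1, had 23.0 ± 21.3 CPM in microglia-like and 48.3 ± 11.4 CPM in oligodendrocyte-lineage-like cells, but the direction was mixed over the plates and the microglia-like value rests on 3 transcripts. Ctns, the cystine exporter, had 8 transcripts in microglia-like and 10 in the deeper oligodendrocyte-lineage-like cells. Scarb2, which carries glucocerebrosidase to lysosomes, was mixed between these types, with 100 ± 43.4 and 96.9 ± 7.65 CPM.

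Tcirg1 was the pump gene of microglia-like cells. It encodes the a3 isoform of the membrane domain, known from osteoclasts, and had 101, 217 and 419 CPM in microglia-like cells. Quiescent stem or astrocyte-like cells held 2 of its transcripts, and oligodendrocyte-lineage-like cells had 22.2, 33.6 and 41.6 CPM. The groups did not overlap, though the microglia-like plates spread widely.

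Of the other 7 pump subunits, 3 were lower in microglia-like than in oligodendrocyte-lineage-like cells on 3 of 3 plates and 4 were mixed. Atp6v0d1, the d1 subunit, had 33.7, 67.9 and 126 CPM in microglia-like cells, against 191 and 449 CPM in quiescent stem or astrocyte-like cells and 222, 202 and 199 CPM in oligodendrocyte-lineage-like cells. Atp6v1a, the catalytic subunit, had 371, 272 and 126 CPM in microglia-like cells, against 378, 339 and 273 CPM in oligodendrocyte-lineage-like cells, a difference on plate 1 smaller than 1 transcript. Atp6v1h was also lower on 3 of 3 plates, with 67.4, 40.7 and 41.9 CPM against 245, 79.5 and 69.4 CPM. It had 6 transcripts in all microglia-like cells, and the difference on plate 3 was smaller than 1 transcript. Atp6v0b, a proteolipid subunit of the membrane ring, did not differ beyond the spread of the plates, with 336 ± 151 CPM in microglia-like, 343 ± 149 CPM in quiescent stem or astrocyte-like and 290 ± 20.4 CPM in oligodendrocyte-lineage-like cells. Atp6v1b2 likewise was mixed.

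Quiescent stem or astrocyte-like cells stood apart from microglia-like and oligodendrocyte-lineage-like cells in the pump genes Atp6ap1 and Atp6v0e. Atp6ap1, an accessory subunit of pump assembly, was low in them: microglia-like cells had 337, 502 and 252 CPM, quiescent stem or astrocyte-like cells 122 and 135 CPM and oligodendrocyte-lineage-like cells 534, 391 and 440 CPM. Atp6v0e, a small membrane subunit, was high in them, with 33.7, 81.5 and 126 CPM in microglia-like cells, 176 and 314 CPM in quiescent stem or astrocyte-like cells and 66.7, 24.4 and 48.6 CPM in oligodendrocyte-lineage-like cells. Activated stem or progenitor-like cells of plate 1 were also low in Atp6ap1, with 163 CPM, but had 32.6 CPM of Atp6v0e. Over all members, 14 were higher in quiescent stem or astrocyte-like than in oligodendrocyte-lineage-like cells on both plates and 13 lower, against 24.7 and 26.6% of all genes, shares near the background. Microglia-like cells exceeded quiescent stem or astrocyte-like cells on both plates for 22 members (20.6% of all genes) and were lower for 12 (24.1%).

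Activated stem or progenitor-like cells had the lowest share of lysosomal transcripts. Their sum on plate 1, from 5 cells, held 256 identifiers of the 47 genes, or 0.278% of transcripts (exact 95% Poisson interval 0.245 to 0.314%, counting error only), against 0.771% (0.724 to 0.820%) in the 25 quiescent stem or astrocyte-like cells of the same plate. The intervals did not overlap for lumenal genes either, with 0.0978% (0.0786 to 0.120%) against 0.352% (0.320 to 0.385%). Pump genes were closer, with 0.0826% (0.0650 to 0.103%) against 0.112% (0.0950 to 0.132%), and these intervals overlapped. With 1 plate there is no replicate of this comparison. In lysosomal transcripts per cell the order was reversed, with medians of 45.0 in activated stem or progenitor-like and 32.0 in quiescent stem or astrocyte-like cells of plate 1, where the sums held 92079 transcripts from 5 cells and 130788 from 25. Lamp1 had 283 CPM against 1087, Psap 152 against 903, Cd63 130 against 536, and Atp6v0d1 228 against 191, in activated stem or progenitor-like against quiescent stem or astrocyte-like cells of plate 1.

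Within the oligodendrocyte lineage the lumenal share was close in both clusters. The lumenal share was 0.245 and 0.219% in cluster 0 and 0.224 and 0.214% in cluster 2 on plates 2 and 3. Lamp1 averaged 2028 CPM in cluster 0 and 1847 CPM in cluster 2. Smpd1, with 104 CPM in cluster 0 against 41.3 CPM in cluster 2, and Fuca1, with 76.4 against 29.1 CPM, were higher in cluster 0 on both plates. Lipa, with 48.5 CPM in cluster 0 against 108 CPM in cluster 2, Cln3, with 71.6 against 118 CPM, and Psap, with 416 against 574 CPM, were lower in cluster 0 on both. Of the 47 members, 18 were higher in cluster 0 on both plates and 10 lower, where 28.4% of 9650 genes were higher and 20.1% lower.

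Markers of each type were also found at lower levels in the other types. The 10 microglial markers summed to 41451 CPM in cluster 1 and to 259, 312, 583 and 445 CPM in clusters 0, 2, 3 and 4. In the other direction, 10 markers of quiescent stem cells or astrocytes, all detected, summed to 5691 CPM in cluster 1 and to 52877 CPM in cluster 3. The 9 oligodendrocyte markers, all detected, summed to 3435 CPM in cluster 1 and to 86288 and 94359 CPM in clusters 0 and 2. Their part in the lysosomal values of cluster 1 was not tested. Of 6 endothelial or mural markers, 5 were also highest in cluster 1, where the 6 summed to 323 CPM.

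Autofluorescence was then set against the same genes. Microglia-like cells were the brightest, with medians of 4929, 5397 and 3950 units on plates 1 to 3. In each plate, cells above its median form the high class and the rest the low class. Transcripts were summed per plate and class and compared with edgeR's quasi-likelihood test with plate as a block. Over all cells, 33 members passed the filter on low counts, and 4 of them were higher in high cells, where 3.89% of 3723 genes were higher and 0.134% lower at a Benjamini-Hochberg adjusted p of 0.05. No member was lower. All 4 were lumenal: Man2b1, Grn, Lgmn and Gm2a. A gene that is high in 1 class passes the filter more easily, so members that passed are not all members. Their median log2 change was 0.46, against -0.04 for all genes tested, and ran from -0.25 for Atp6v1a to 2.98 for Gm2a. Of the 33, 10 had an unadjusted edgeR p under 0.05, as did 11.1% of the 3723 genes. Of these 10, 9 were lumenal and the other was Lamp2.

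Man2b1 had 176, 293 and 108 CPM in high cells of plates 1 to 3, against 23.2, 27.8 and 43.7 CPM in low cells. The classes did not overlap, and the log2 change was 2.49 (SE 0.47, edgeR adjusted p = 0.00199). Grn had 704, 895 and 265 CPM in high cells, against 128, 92.6 and 153 CPM in low cells (log2 2.18, SE 0.43, edgeR adjusted p = 0.00241), and here too the classes stood apart. Lgmn had 688, 1027 and 405 CPM in high cells, against 98.6, 315 and 210 CPM in low cells, again without overlap (log2 1.78, SE 0.38, edgeR adjusted p = 0.00575). Plate 3 showed the smallest difference for all 3 genes.

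Gm2a was called on few transcripts. It had 136, 55.6 and 56.1 CPM in high cells, against 5.80, 23.2 and 0 CPM in low cells, from 42 transcripts in high and 6 in low cells. The log2 change was 2.98 (SE 0.80, edgeR adjusted p = 0.0340), and the call was lost without any 1 of the 3 plates, with adjusted p of 0.131, 0.0680 and 0.109 without plates 1, 2 and 3. Without plate 2 none of the 4 genes passed the threshold.

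The abundant members changed less. Psap had 1095, 976 and 557 CPM in high cells, against 435, 496 and 542 CPM in low cells, which was higher on 3 of 3 plates but did not pass (log2 0.80, SE 0.34, edgeR adjusted p = 0.326). Lamp1 had 1111, 1806 and 1900 CPM in high cells, against 853, 1746 and 1804 CPM in low cells (log2 0.18, SE 0.29, adjusted p = 0.908). Cd68, with 26 transcripts in high and 4 in low cells, was too low to be tested. As shares of transcripts, lumenal genes held 0.456 ± 0.155% in high and 0.224 ± 0.0242% in low cells. Membrane genes held 0.328 ± 0.0272 and 0.280 ± 0.0683%, and pump genes 0.143 ± 0.0232 and 0.138 ± 0.0222%, both within the spread of the plates.

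Microglia-like cells were unevenly divided between these classes. The high classes held 8, 15 and 9 cells of cluster 1, and the low classes 1, 3 and 0. The summed level of the 10 microglial markers was 4118 to 14069 CPM in high and 245 to 2052 CPM in low cells, all 10 were detected in each high class, and Tmem119 and Aif1 were at 0 in the low class of plate 3. Of the 9 markers tested, 9 were higher in high cells. Markers of quiescent stem cells or astrocytes rose too, in 6 of 9 tested. Among 14 other lysosomal membrane proteins, 4 were tested and 1 was higher, Laptm5, a lysosomal membrane protein of blood-lineage cells. It had 616, 981 and 369 CPM in high cells, against 58.0, 139 and 21.8 CPM in low cells (log2 3.32, SE 0.40, edgeR adjusted p = 1.94e-05). Of the 8 other pump subunits and the 6 sorting receptors and regulators tested, 0 passed.

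With cluster 1 left out and medians retaken, no member passed. Of 2913 genes tested, 0.343% were higher and 0.0343% lower, and of the 28 members tested 0 were called by edgeR or by DESeq2, with 1, Atp6v0e, at an unadjusted edgeR p under 0.05. Over all genes 7.0% were under that p, so 1 of 28 is no more than the background. Grn had 227, 144 and 105 CPM in high cells, against 108, 57.7 and 118 CPM in low cells (log2 0.78, SE 0.43, adjusted p = 0.804). Lgmn had 155, 318 and 189 CPM in high cells, against 95.1, 202 and 201 CPM in low cells (log2 0.47, SE 0.39, adjusted p = 0.902). Man2b1, too low to be tested there, had 27.3, 19.9 and 45.6 CPM in high and 19.0, 21.6 and 47.2 CPM in low cells. For these genes the classes overlapped. Microglial markers summed to 140 to 573 CPM in high and 238 to 830 CPM in low cells, with 1 or more of Aif1, C1qa and Tmem119 at 0 in 5 of the 6 sums.

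Gm2a kept its direction outside cluster 1, with 127, 19.9 and 35.1 CPM in high cells, against 6.34, 14.4 and 0 CPM in low cells, from 28 and 3 transcripts, too few to be tested. Atp6v0e had 173, 34.8 and 70.2 CPM in high cells, against 63.4, 14.4 and 47.2 CPM in low cells (log2 1.18, SE 0.54, edgeR adjusted p = 0.683). Both genes were high in quiescent stem or astrocyte-like cells, of which the high classes held 16, 1 and 3 and the low classes 9, 0 and 1. Summed markers of that type stood at 46899, 2885 and 6358 CPM in high and 12708, 2302 and 4600 CPM in low cells, and their part in these values was not tested.

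**Figure D4:**
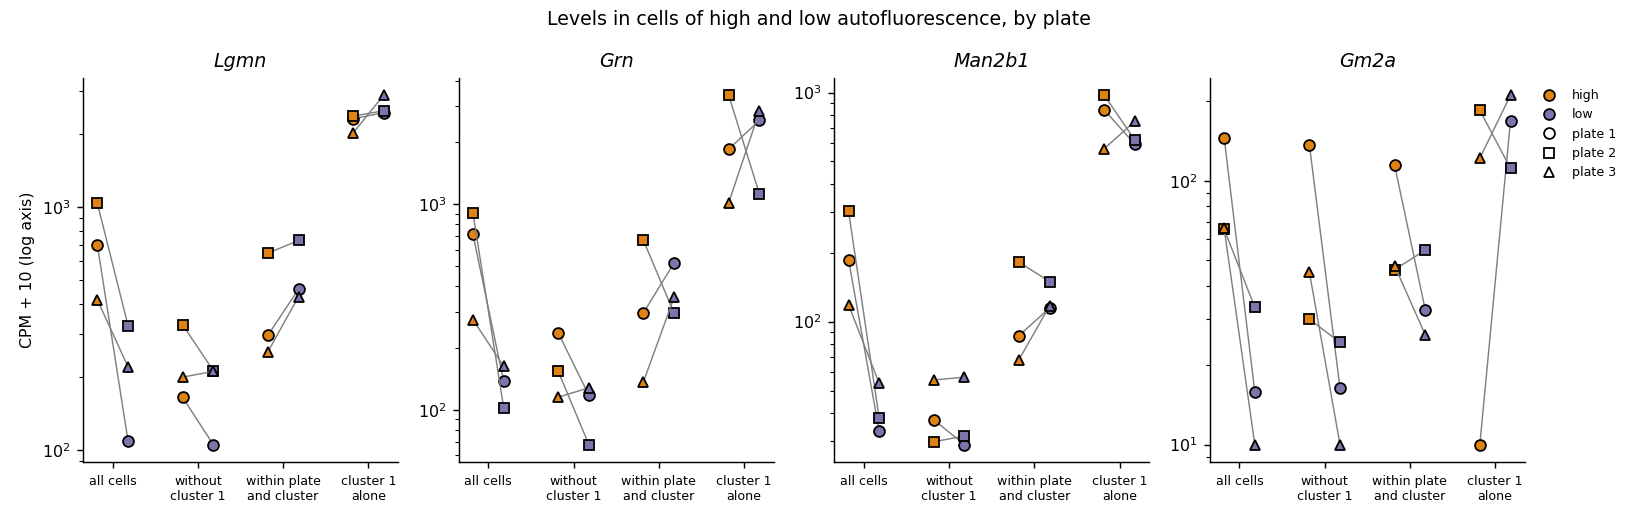
CPM + 10 on a log axis for the 4 genes called over all cells, in high and low autofluorescence classes of each plate, over all cells, without cluster 1, within plate and cluster, and in cluster 1 alone; lines join the classes of a plate. Over all cells each high point lies above its low point, while in cluster 1 alone Lgmn is lower in high cells on each plate and the other genes run both ways.

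Taking the median within plate and cluster nearly balanced the clusters by cell count, but not by transcripts. In the high sums of plates 1 to 3, cluster 1 held 7.58, 15.5 and 3.06% of transcripts. In the low sums it held 14.1, 22.0 and 7.99%. Cluster 2 ran the other way, at 11.9, 43.3 and 45.7% in high and 5.44, 22.5 and 33.8% in low sums. Of 3412 genes, 0 were higher and 0.0879% lower. Of 32 members tested, 0 were called by edgeR or DESeq2, and 1, Arsb, had an unadjusted edgeR p under 0.05, against 7.06% of all genes, so this count too is no more than the background. Arsb had 55.9, 131 and 44.5 CPM in high cells, against 202, 145 and 102 CPM in low cells (log2 -0.91, SE 0.38, adjusted p = 0.590). Lgmn had 287, 636 and 243 CPM in high cells, against 449, 720 and 418 CPM in low cells (log2 -0.48, SE 0.26, adjusted p = 0.728). Grn and Man2b1 had values of -0.24 (SE 0.31, adjusted p = 0.926) and -0.24 (SE 0.37, adjusted p = 0.953). Microglial markers were lower in these high classes on every plate, at 1367 to 6397 CPM against 3663 to 10067 CPM in low cells, with all 10 detected in each sum, and their part in these values was not tested.

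Inside cluster 1 the depth allowed few tests. Of 210 genes 5 were members, and 0 genes passed by edgeR or DESeq2 (2, or 0.952%, at an unadjusted edgeR p under 0.05, none of them a member). Psap had 1752, 2600 and 1565 CPM in high cells, against 1593, 1319 and 940 CPM in low cells (log2 0.69, SE 0.41, adjusted p = 0.999), higher on 3 of 3 plates. Lgmn had 2306, 2366 and 2013 CPM in high cells, against 2442, 2487 and 2887 CPM in low cells, lower on 3 of 3 plates (log2 -0.16, SE 0.36, adjusted p = 0.999). Arsb, too low to be tested, had 277, 321 and 335 CPM in high cells, against 849, 355 and 739 CPM in low cells. In clusters 0 and 2, 0 of 2507 genes and 0 of 26 members passed by edgeR or DESeq2 (52 genes, or 2.07%, and 0 members at an unadjusted edgeR p under 0.05), with member log2 changes from -0.72 for Laptm4a to 0.52 for Lipa. There the high sum of plate 1 is 1 cell. The difference of the change between cluster 1 and clusters 0 and 2 was tested for 13 members, and 0 passed, as did 0 of 623 genes (16 genes, or 2.57%, and 0 members at an unadjusted p under 0.05).

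Over single cells the correlation of the lumenal share with autofluorescence changed sign between plates in clusters 0, 1 and 2. Spearman's rho within plate and cluster 1 was 0.28, 0.53 and -0.20 for 9, 18 and 9 cells. In cluster 0 it was 0.14 and -0.44 on plates 2 and 3 (15 and 26 cells), in cluster 2 0.05 and -0.22 (10 and 22 cells), and in cluster 3 of plate 1 0.07 (25 cells). The pump share had -0.72, 0.25 and -0.42 in cluster 1, 0.31 and 0.39 in cluster 0, 0.02 and -0.06 in cluster 2, and 0.04 in cluster 3 of plate 1. The cells of a group share library and cluster, and the total of transcripts of a cell itself had a rho of 0.64 and 0.79 with autofluorescence in cluster 2, so these values are given as a description.

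**Figure D5:**
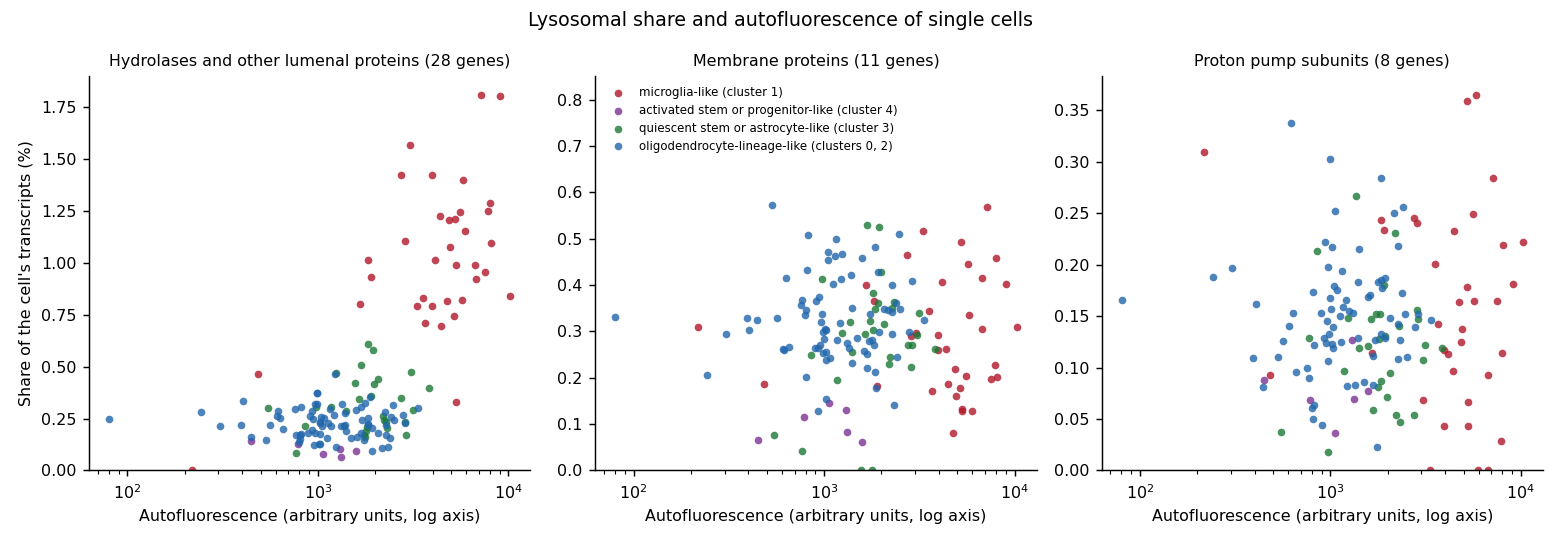
Share of each cell's transcripts (%) in lumenal, membrane and pump genes against its autofluorescence (arbitrary units, log axis) for the 149 cells, coloured by cell type. Microglia-like cells lie mostly to the right and, in the lumenal panel, above the others, with 33 of 36 over the highest quiescent stem or astrocyte-like and oligodendrocyte-lineage-like cells, while membrane and pump shares overlap.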

How the data were processed

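Per the labels, 3 SORT-seq samples hold cells of 1 group, and each was read as 1 plate from the last digit of the library name, which no label states. The authors deposited estimated counts of transcripts per gene and cell, corrected for identifiers that collide by chance. With the correction undone for 4096 possible identifiers, 100% of the 349688 non-zero values came out whole to within 1e-06. The authors also deposited a count of genes per cell, cluster numbers and an autofluorescence intensity per cell on a linear scale. Tools listed in the submitters' processing notes, without roles, are Seurat 4.1.1, R 4.2.0 and BWA 0.7.15, with the builds mm10 and hg19. The annotation and the use of strand are not stated, and 10 of the 47 members overlap another gene of the table.

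Estimated counts were summed over the cells of a type or of an autofluorescence class on each plate, and rounded. The sums are the replicates. edgeR 4.0.16 in R 4.3.3 was run with TMM, filterByExpr, plate as a block and the quasi-likelihood test, adjusted by Benjamini-Hochberg over all genes tested, with a threshold of 0.05. Both classes of a plate share its library, which is why plate was the block. The p-values measure the spread between plates that is left after that. DESeq2 1.42.0, RLE factors, no filter, no block, tertiles, recovered counts and each plate left out were alternatives. The fits were tested on simulated data. The test of the difference between cell types was added after the data were seen. Cells were called X-like where a type's markers were highest with at least 3 detected. No doublet caller was run. Plates use the same well barcodes: 86 wells were kept on at least 1 plate and 50 of these on more than 1.

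Genes given in full were those past the threshold, and in each role the 4 with the highest mean level and the 2 with the widest range between clusters 0 to 3. Others were added to describe each role and were chosen after their values were seen. The members and lists were chosen with earlier results of these data known. Promoters came from RefSeq (GRCm38.p6), and gene positions from GENCODE M21. Matches were searched with Python 3.11.15. Some items of the lists used are not reported here.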

Additional observations from a re-analysis of the deposited data

How the results depend on the processing

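Over all cells 4 members were called. The count was 0 without the plate block, which then adds the spread between plates to the error, while the log2 changes were 2.33 for Grn, 1.78 for Lgmn, 2.58 for Man2b1 and 2.99 for Gm2a. It was 0 to 3 with 1 plate left out, and 1, Man2b1, between the highest and lowest tertile, where the log2 changes were 3.25 for Man2b1, 3.15 for Grn (adjusted p = 0.0695) and 2.75 for Lgmn (0.0850). It was 4 with RLE factors, DESeq2 and recovered identifier counts, and 5 with no filter. Without plate 2, log2 changes were 1.66 for Grn, 1.86 for Lgmn, 2.03 for Man2b1 and 4.95 for Gm2a, none past the threshold. The adjusted p over the alternatives ran from 9.32e-09 to 0.403 for Grn, 2.75e-05 to 0.545 for Lgmn, 7.10e-06 to 0.263 for Man2b1 and 0.00215 to 0.411 for Gm2a. In the other comparisons by autofluorescence 0 members were called under every alternative run, the fit without the block among them.

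Small values changed sign. Within plate and cluster, with 1 plate left out, Grn ran from -1.05 to 0.27 (0.04 and 0.27 without plates 1 and 3) and Man2b1 from -0.61 to 0.024, the last without plate 3. In cluster 1, Grn had 0.10 in the fit reported, -0.24 with no filter, -0.075 with DESeq2 and -0.90 to 0.72 with 1 plate left out, the lowest without plate 2. The cause was not tested.

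The lysosomal share of all transcripts was 1.52% in microglia-like, 0.742% in quiescent stem or astrocyte-like and 0.763% in oligodendrocyte-lineage-like cells. Without Lamp1 and Psap it was 1.27, 0.524 and 0.502%. As the mean of single cells the microglia-like value was 1.44%, and with a minimum of 1 cell the quiescent stem or astrocyte-like value was 0.692%. The mean log2 ratio of microglia-like over oligodendrocyte-lineage-like shares changed sign for membrane genes without Lamp1 and Psap (-0.25 and 0.50) and for pump genes with 1 plate left out (-0.33 to 0.15, against -0.13 with all plates), being positive without plate 1. With 1 plate left out, 24 to 28 members were higher on each remaining plate and 9 to 12 lower, against 23 and 8 with all plates, since fewer plates have to match. A gene seen at 1 transcript on a microglia-like plate stands at 13.6 to 41.9 CPM, which limits the 14 members too low to be tested.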
